A study of Mus musculus with 28 samples.

Results

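Homozygous (Hom) and heterozygous (Het) mutants of a mouse Myt1l knockout line were compared with each other in embryonic cortex (E14.5). The members were chosen by their titles and the labelled genotype: 4 Hom libraries and 6 Het libraries, 10 of the 28 RNA-seq libraries of the series. They set embryos labelled homozygous against embryos labelled heterozygous for the same line. The 6 wild-type (WT) cortices of the same age entered the same fit and are given beside the mutants where they help to place a value. The adult prefrontal cortex of the series is not analysed here.

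The Hom group held 3 embryos labelled female (F01, F04 and F09) and 1 labelled male (M02). The Het group held 3 labelled female (F02, F07 and F10) and 3 labelled male (M01, M07 and M11). The WT group held 5 labelled female and 1 labelled male. No treatment is given, and each library carries its own animal identifier, so a library stands for 1 embryo. The labels name the line a MYT1L knockout without describing the allele, and name the tissue cortex without saying how it was dissected. Whole tissue was sequenced, so fewer cells of a type and less RNA per cell cannot be told apart. The first part of the animal identifier, 14424 or 14526, is shared by 3 Hom and 4 Het libraries and by 1 Hom and 2 Het libraries. What it stands for is not stated.

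In 2 Het libraries the Y-linked gene Ddx3y went against the labelled sex. It measured 21.6 CPM (a read count scaled to the library's total) in Het F10, labelled female, and 0 CPM in Het M11, labelled male. These libraries also had the lowest Myt1l levels among the Het embryos. Results are therefore also given without both. The main fit kept both with their labelled sex, and the setting with only libraries labelled female still held Het F10. The recovered library totals were 27827467 to 29618204 in Hom and 28873455 to 30569658 in Het. They follow the authors' scaling, so the sequencing depth is unknown. Markers of the labelled tissue were present: the cortical neuron gene Neurod6 averaged 1569 CPM in Hom and 1618 CPM in Het, and the cortical layer gene Tbr1 averaged 46.8 CPM in Hom and 48.7 CPM in Het.

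MYT1L is a zinc-finger transcription factor that appears when newborn neurons leave the cell cycle and stays on in mature neurons. It belongs to a small family with MYT1 and ST18, recruits the SIN3 and histone deacetylase corepressors, and is known for repressing non-neuronal programs. Family members bind DNA at a short core, AAGTT. At this age the cortex holds radial glia and intermediate progenitors that divide, and the deep-layer neurons they have made.

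The promoter windows below, from RefSeq on GRCm38.p6, are those of the targeted gene and of a pair of genes from the choroid plexus list described further on. Each covers the 250 bases before the annotated start, 5′ to 3′ on the strand of the gene, with the AAGTT core on either strand in capitals. The windows are chr12:29528134-29528383 on the plus strand for Myt1l, chr9:62857854-62858103 on the plus strand for Calml4 and chr1:87394730-87394979 on the minus strand for Kcnj13. RefSeq lists 5 windows for Myt1l, of which the first is shown.
Myt1l: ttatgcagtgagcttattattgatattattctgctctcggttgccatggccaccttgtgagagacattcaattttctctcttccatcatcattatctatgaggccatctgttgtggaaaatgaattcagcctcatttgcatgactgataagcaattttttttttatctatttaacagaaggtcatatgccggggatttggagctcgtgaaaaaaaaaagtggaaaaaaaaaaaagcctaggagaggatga
Calml4: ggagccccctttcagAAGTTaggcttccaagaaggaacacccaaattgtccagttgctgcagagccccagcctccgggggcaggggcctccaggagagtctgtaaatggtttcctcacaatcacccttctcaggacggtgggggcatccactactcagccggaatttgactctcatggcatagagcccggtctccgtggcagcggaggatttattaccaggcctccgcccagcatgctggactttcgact
Kcnj13: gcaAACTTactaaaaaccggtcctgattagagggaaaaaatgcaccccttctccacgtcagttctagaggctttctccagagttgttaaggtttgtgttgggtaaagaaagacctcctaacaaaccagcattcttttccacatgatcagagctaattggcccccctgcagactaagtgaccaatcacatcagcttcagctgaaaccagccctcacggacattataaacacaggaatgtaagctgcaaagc
The core stood once in the Calml4 window, once in the Kcnj13 window as its reverse complement AACTT, and not in the Myt1l window. It is common, and 35.3% of 32851 windows of this length held it on either strand. A match is a description of the letters and not a binding site.

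Myt1l was lower in Hom than in Het cortex, at 47.3% of the Het mean, and it was the 1 gene that passed the test. This protein-coding gene (ENSMUSG00000061911) lies on the plus strand of chromosome 12, between positions 29528384 and 29923213 of GRCm38. It measured 18.7, 23.3, 18.1 and 20.8 CPM in Hom F01, F04, F09 and M02. In Het F02, F07, F10, M01, M07 and M11 it measured 59.5, 45.95, 30.8, 41.1, 48.9 and 30.6 CPM. All 4 Hom values lay below all 6 Het values, and the Hom values lay much closer together than the Het values. The means were 20.2 CPM ± 2.35 (SD, n = 4) in Hom and 42.8 CPM ± 11.1 (SD, n = 6) in Het, against 55.5 CPM ± 8.16 (SD, n = 6) in WT. Against WT, Myt1l was called in Hom (log2 change -1.43, limma adjusted p = 0.000112). In Het it was not called (log2 change -0.39, limma adjusted p = 0.125), and Het and WT values overlapped. The log2 change of Hom against Het was -1.04 (SE 0.16, 95% interval -1.37 to -0.70, limma adjusted p = 0.0382). An exact two-sided permutation test over the 210 arrangements of 4 and 6 libraries gave p = 0.00952. Each Hom library thus had a value above 0 for the gene; the protein was not measured here.

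The call of Myt1l depended on single libraries, while its change moved less. Without Het F10 and Het M11 the log2 change was -1.25 (limma adjusted p = 3.59e-05). Both had the lowest Myt1l values of the Het group, so leaving them out was bound to enlarge the change. That p-value therefore does not strengthen the call. Leaving out any 1 of the 4 Hom libraries took the adjusted p above 0.05, with the highest value, 0.467, without Hom M02. The call was also lost without Het F07, M01 or M07, without WT F04, F06, F12 or M03, and in 7 of 14 other alternative settings. Over all 16 single-library omissions the log2 change stayed between -1.16 and -0.90. Among libraries with identifier prefix 14424, Myt1l averaged 20.03 CPM in 3 Hom and 42.5 CPM in 4 Het embryos. With prefix 14526 it measured 20.8 CPM in the 1 Hom embryo and averaged 43.5 CPM in 2 Het embryos.

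The family members MYT1 and ST18, zinc-finger factors of the same fold, did not pass the test. Myt1 measured 34.5, 31.1, 39.0 and 33.7 CPM in the Hom libraries, and in the Het libraries the lowest, median and highest values were 29.5, 31.2 and 37.6 CPM. St18 ran from 9.97 to 15.8 CPM in Hom and from 10.2 to 15.5 CPM in Het. The groups overlapped for both genes. The log2 changes were 0.10 for Myt1 (95% interval -0.10 to 0.31) and 0.05 for St18 (95% interval -0.25 to 0.35). The partners of the family, listed as SIN3, REST and histone deacetylase corepressors, had Hdac1 as their most abundant member, at 304 CPM in Hom and 289 CPM in Het (log2 change 0.08). That list also holds Myt1l itself. Of its 14 genes, this targeted gene alone was called, beside 0.00805% of all genes tested, and the list median was 0.02. No partner was called. The genes next to Myt1l on chromosome 12 had a median of -0.07 over 6 tested members, with no call, and Pxdn, which encodes a peroxidasin of the extracellular matrix, averaged 14.49 CPM in Hom and 16.2 CPM in Het.

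**Figure D1:**
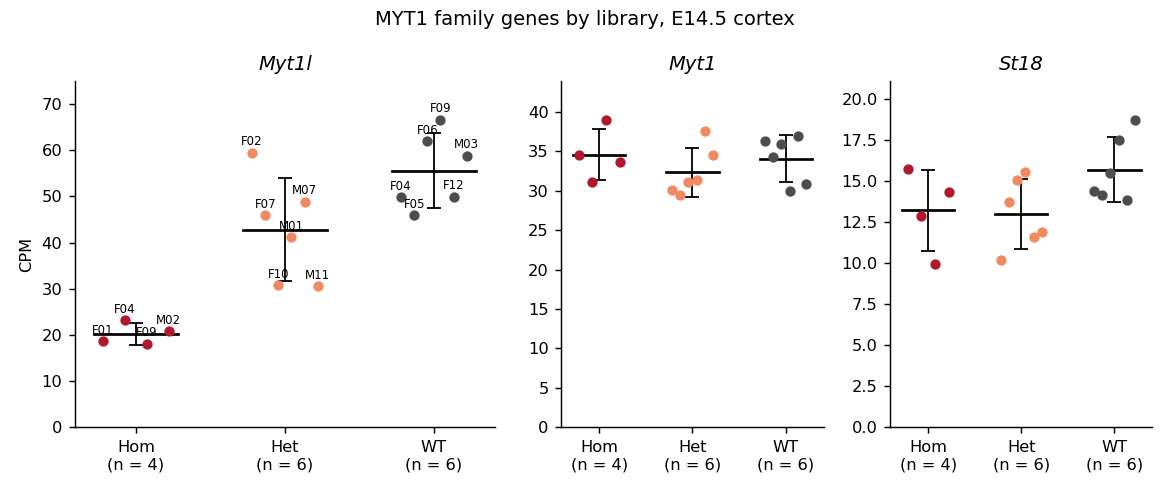
CPM of Myt1l, Myt1 and St18 in each library of E14.5 cortex, with Hom left, Het in the middle and WT right; points are libraries, horizontal lines are means and bars are 1 SD. The 4 Hom libraries sit between 18.1 and 23.3 CPM for Myt1l, below the 6 Het libraries at 30.6 to 59.5 CPM, while for Myt1 and St18 the groups overlap.

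Across the transcriptome few genes separated Hom from Het. Of 12429 genes tested, 1 was called lower and 0 were called higher in Hom at a limma adjusted p under 0.05, which is 0.00805% of the genes. An unadjusted p under 0.05 was reached by 636 genes, or 5.12%, about the share that this threshold passes when no gene differs. Of these, 258 (2.08%) had higher and 378 (3.04%) lower values in Hom. Voom weights turned that split to 531 higher and 195 lower, and a GC and length correction to 318 and 332, so it did not keep its balance across scalings. The 4 Hom values lay above all 6 Het values for 46 genes (0.37%) and below them for 66 genes (0.531%). With no difference between the groups, 1 of 210 arrangements, a fraction of 0.0048, would do so in each direction. The observed shares lie near that fraction. Without Het F10 and Het M11, 978 genes had an unadjusted p under 0.05 and the 1 call was again Myt1l.

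The width of the intervals shows what the comparison could resolve in values already adjusted by the authors. The 95% interval of the log2 change reached a median of 0.303 to either side. For 7693 genes (61.9%) the whole interval lay within 0.5 of 0, and for 11688 genes (94.0%) it lay within 1 of 0. Precision followed abundance, with a median half-width of 0.229 for the 7542 genes at 10 CPM or more and 0.484 for the rest.

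**Figure D2:**
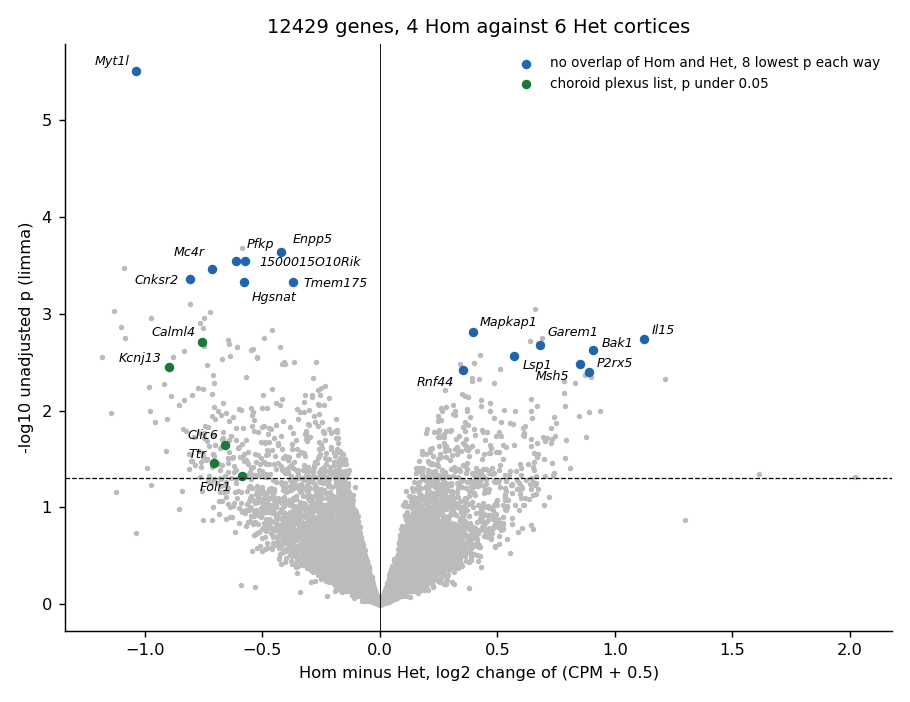
Log2 change of Hom against Het (x axis) and -log10 of the unadjusted limma p (y axis) for 12429 genes; blue points are the 8 genes with the lowest p in each direction whose Hom and Het values do not overlap, green points are choroid plexus genes with p under 0.05, and the dashed line marks the unadjusted threshold. Myt1l stands apart at the upper left with a log2 change of -1.04, above the other named genes.

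The genes described next did not pass the test, and their adjusted p-values ran from 0.59 to 0.864. After Myt1l, they had the lowest p in each direction among genes whose Hom and Het values did not overlap. That choice was made on the same values. Genes without overlap were about as frequent as they would be with no difference, so the genotype patterns below are descriptions only. Among those with lower values in Hom, Enpp5, which encodes a membrane protein of the nucleotide pyrophosphatase family, measured 32.2, 33.6, 26.4 and 28.3 CPM in Hom, against a lowest, median and highest of 38.2, 39.5 and 43.4 CPM in Het (log2 change -0.42, SE 0.10). Its WT mean was 39.0 CPM, close to the Het mean of 40.3 CPM. Pfkp, the platelet-type phosphofructokinase of glycolysis, measured 5.74, 5.15, 4.83 and 5.62 CPM in Hom, against 7.37, 8.05 and 11.05 CPM as the lowest, median and highest in Het (log2 change -0.61, SE 0.14). Tmem175, a lysosomal potassium channel, ran from 24.0 to 28.1 CPM in Hom and from 31.2 to 35.7 CPM in Het (log2 change -0.37). Hgsnat, a lysosomal enzyme that acetylates heparan sulfate, ran from 5.43 to 6.00 CPM in Hom and from 6.82 to 10.2 CPM in Het (log2 change -0.58). In these 4 genes the Het mean lay nearer to the WT mean than the Hom mean did.

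In 3 other genes Het stood above both Hom and WT. Mc4r, the melanocortin-4 receptor, measured 29.4, 31.5, 21.4 and 29.3 CPM in Hom, with 31.7, 45.3 and 61.1 CPM as the lowest, median and highest in Het and a WT mean of 36.6 CPM (log2 change of Hom against Het -0.71, SE 0.17). The gene listed as 1500015O10Rik, which RefSeq also calls Ecrg4, encodes a secreted peptide precursor and ran from 21.97 to 35.2 CPM in Hom and from 36.5 to 52.0 CPM in Het, with a WT mean of 32.4 CPM (log2 change -0.57). Cnksr2, a scaffold of Ras signalling at synapses, ran from 1.21 to 2.76 CPM in Hom and from 3.17 to 4.42 CPM in Het, with a WT mean of 2.78 CPM (log2 change -0.81).

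Of the genes with higher values in Hom, Mapkap1, which encodes the SIN1 subunit of mTOR complex 2, was the most abundant. It measured 24.6, 24.3, 25.7 and 27.1 CPM in Hom, against 18.7, 19.5 and 20.5 CPM as the lowest, median and highest in Het (log2 change 0.39, SE 0.11). Rnf44, a RING finger protein, ran from 19.2 to 23.4 CPM in Hom and from 13.7 to 17.4 CPM in Het (log2 change 0.35). Garem1, an adaptor of growth factor signalling, ran from 4.81 to 7.07 CPM in Hom and from 2.60 to 4.07 CPM in Het, with a WT mean of 3.24 CPM (log2 change 0.68). These 3 genes stood higher in Hom than in either other genotype.

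The other 5 genes of this kind averaged under 10 CPM. Bak1, a mediator of apoptosis at the mitochondrial outer membrane, measured 2.32, 1.33, 1.59 and 1.82 CPM in Hom and 0.373, 0.594 and 1.32 CPM as the lowest, median and highest in Het (log2 change 0.91). Its WT mean was 1.85 CPM, close to the Hom mean of 1.76 CPM, and its Het mean was 0.765 CPM. Il15, a cytokine, ran from 1.23 to 1.74 CPM in Hom and from 0.136 to 1.14 CPM in Het (log2 change 1.12). Msh5, a meiotic mismatch-repair homolog, ran from 1.67 to 2.43 CPM in Hom and from 0.373 to 1.39 CPM in Het (log2 change 0.85). P2rx5, an ATP-gated channel, ran from 1.19 to 1.95 CPM in Hom and from 0.371 to 0.949 CPM in Het (log2 change 0.89). Lsp1, an actin-binding protein of leukocytes, ran from 6.48 to 10.1 CPM in Hom and from 4.10 to 5.91 CPM in Het (log2 change 0.57). A step of 1 in the recovered numbers was worth about 0.034 CPM, so values under 1 CPM rest on few steps.

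A log2 change past 1 in size together with an unadjusted p under 0.05 was found for 11 genes, and they were named after their values were seen. Besides Myt1l and Il15 they were Ablim3, Nme9, Manba, Smim5, Ccdc33, Serpinb6b, Pou4f1, Pnoc and Isl1. Ablim3, an actin-binding LIM protein, measured 2.36, 2.35, 1.28 and 0.639 CPM in Hom, against 2.03, 3.57 and 5.32 CPM as the lowest, median and highest in Het and a WT mean of 4.27 CPM (log2 change of Hom against Het -1.09, limma adjusted p = 0.59). The ranges of Hom and Het overlapped through Het M11. Pou4f1, a POU-domain factor of sensory and habenular neurons, measured 0.786, 1.54, 7.67 and 2.52 CPM in Hom and at most 1.29 CPM in Het, so that its log2 change of 1.21 leaned on Hom F09. Manba, a lysosomal mannosidase, averaged 0.84 CPM in Hom and 2.61 CPM in Het (log2 change -1.10).

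The genes that set the mutants apart from WT showed small differences between Hom and Het. With Hom and Het weighted 0.4 and 0.6, the pooled mutants had 763 genes called higher (6.14%) and 787 called lower (6.33%) than WT, together 12.5% of the genes tested. The pooled contrast was run with the main settings only, with Het F10 and Het M11 included. How its calls depend on the processing was not tested. This contrast is nearly independent of Hom against Het, with a correlation of -0.05 between the 2 estimates by design. Among the 763 genes the median log2 change was 0.37 in Hom against WT, 0.35 in Het against WT and 0.01 in Hom against Het. Among the 787 genes it was -0.33 in Hom against WT, -0.29 in Het against WT and -0.04 in Hom against Het, beside -0.01 over all genes. Of the 787 genes, 520 had a change of Hom against Het below 0, as did 6594 of all 12429. An unadjusted p under 0.05 was met by 40 of them (5.08%) with lower and 9 (1.14%) with higher values in Hom. Over all genes these shares were 3.04% and 2.08%. Of the 763 genes, 424 had a change above 0, beside 5835 of all 12429. That threshold was met by 20 (2.62%) of the 763 with higher and 10 (1.31%) with lower values. The interval of Hom against Het lay within 0.5 of 0 for 637 (83.5%) of the higher and 726 (92.2%) of the lower genes. The share over all genes was 61.9%. Genes called in the same fit tend to have a small spread, which also narrows this interval. These shares therefore do not show that the genes are alike in Hom and Het.

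Among the genes with the lowest p between the pooled mutants and WT, Pkm, the pyruvate kinase of glycolysis, averaged 2542 CPM ± 36.7 (SD, n = 4) in Hom and 2663 CPM ± 226 (SD, n = 6) in Het, against 3607 CPM in WT. Its change of Hom against Het was -0.05 (95% interval -0.18 to 0.08). Hdac6, a deacetylase of tubulin, averaged 45.7 CPM in Hom, 49.7 CPM in Het and 69.7 CPM in WT. Abcf2, Copg1 and Psap, an ATP-binding protein, a coatomer subunit and the saposin precursor, also had intervals of Hom against Het that crossed 0.

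Of the genes higher in the pooled mutants, Basp1, a membrane protein of growth cones, averaged 183 CPM in Hom, 173 CPM in Het and 116 CPM in WT (Hom against Het 0.12, 95% interval -0.11 to 0.35). Eid1, an inhibitor of differentiation that binds EP300, averaged 81.8 CPM in Hom, 77.9 CPM in Het and 49.1 CPM in WT (Hom against Het 0.06). The interval of Rcn2, an endoplasmic reticulum calcium-binding protein, excluded 0, with 55.0 CPM in Hom, 46.9 CPM in Het and 36.2 CPM in WT (log2 change 0.21, 95% interval 0.03 to 0.40), but its adjusted p did not pass. Cfap36, Csnk1a1 and Cmpk1 had intervals that crossed 0.

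**Figure D3:**
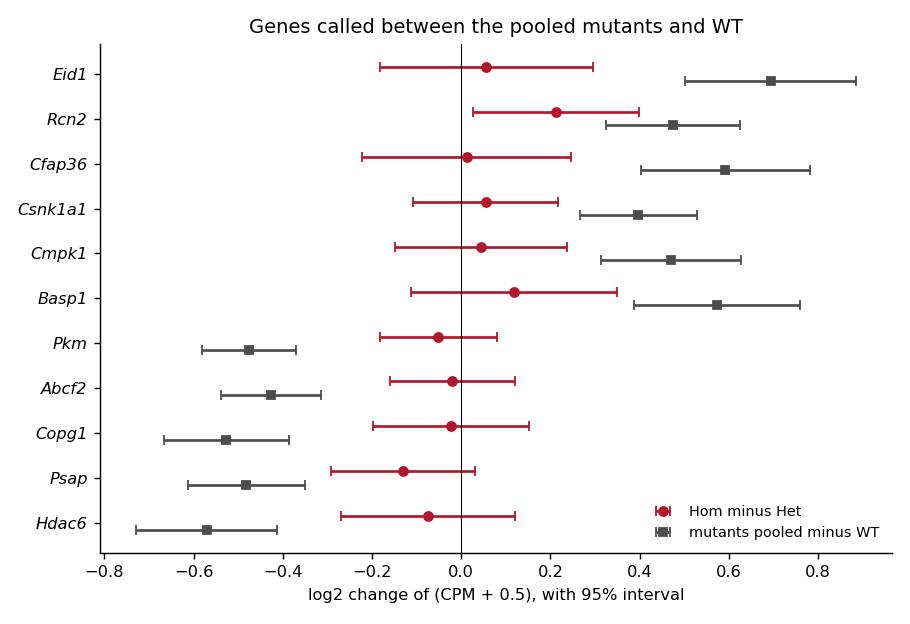
Log2 changes with 95% intervals for 11 genes called between the pooled mutants and WT: red circles are Hom against Het, grey squares the mutants pooled against WT. The grey squares were chosen for lying far from 0, and the red circles lie between -0.13 and 0.21, with Rcn2 the 1 gene whose red interval excludes 0.

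The medians of the progenitor and neuron lists lay close to that of all genes. None of the lists in the next 3 paragraphs held a called gene, beside the 0.00805% of all genes. The radial glia list had a median log2 change of 0.05 over 15 tested genes, against -0.01 over all genes. In it, Sox2, Id4 and Emx2 had an unadjusted p under 0.05 with higher values in Hom, and no gene with lower values did. These genes were 20% of the tested members, beside 2.08% of all genes. Sox2, a factor of neural stem cells, measured 35.3, 36.4, 39.5 and 39.7 CPM in Hom, against 20.9, 29.5 and 52.7 CPM as the lowest, median and highest in Het (log2 change 0.34, 95% interval 0.04 to 0.64). The groups overlapped through Het M11 and Het M01. Fabp7, the most abundant gene of the list, averaged 1129.65 CPM in Hom and 1209 CPM in Het (log2 change -0.10).

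The intermediate progenitor list had a median of 0.03 over 10 genes, with Eomes, a T-box factor of these cells, at 80.2 CPM in Hom and 79.3 CPM in Het. Among 26 S phase genes the median was -0.01, and Pola1, the catalytic subunit of DNA polymerase alpha, was the 1 gene with an unadjusted p under 0.05. It measured 10.1, 6.14, 9.19 and 4.95 CPM in Hom, against 8.23, 9.83 and 11.5 CPM in Het as lowest, median and highest (log2 change -0.45). The 24 G2 and mitosis genes had a median of 0.02 and no gene with p under 0.05, and Ccnb1, a mitotic cyclin, averaged 385 CPM in Hom and 383 CPM in Het.

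The 20 early neuron genes had a median of 0.03, with the doublecortin gene Dcx at 180 CPM in Hom and 182 CPM in Het. Nefl and Ina, 10% of this list, had an unadjusted p under 0.05 with higher values in Hom, beside 2.08% of all genes. No early neuron gene with lower values did. Nefl, the light neurofilament subunit, measured 3.66, 4.40, 3.82 and 7.54 CPM in Hom, against 2.34, 3.13 and 5.02 CPM in Het as lowest, median and highest (log2 change 0.48, 95% interval 0.01 to 0.94). The groups overlapped, and Hom M02 was the highest library. The deep-layer median was -0.04 over 11 genes and the upper-layer median -0.03 over 10 genes, with Bcl11b, a deep-layer zinc-finger factor, at 134 CPM in Hom and 125 CPM in Het (log2 change 0.10). Presynaptic genes had a median of -0.03 over 20 genes and postsynaptic genes 0.07 over 13 genes. Camk2a and Gria1, 15.4% of the postsynaptic genes, had an unadjusted p under 0.05 with higher values in Hom. Of the presynaptic genes, Sv2a (5%) had such a p with lower values in Hom, beside 3.04% of all genes. Camk2a, a kinase of the postsynaptic density, measured 4.58, 3.68, 3.01 and 7.30 CPM in Hom, against 2.03, 2.85 and 5.12 CPM in Het as lowest, median and highest (log2 change 0.61, 95% interval 0.13 to 1.09). Notch and Wnt pathway genes had medians of 0.08 and 0.06, with 11 of 15 and 13 of 14 changes above 0, beside 5835 of all 12429 genes. The Notch effector Rbpj averaged 58.1 CPM in Hom and 52.1 CPM in Het, and the Wnt effector Ctnnb1 averaged 283 CPM in Hom and 268 CPM in Het.

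**Figure D4:**
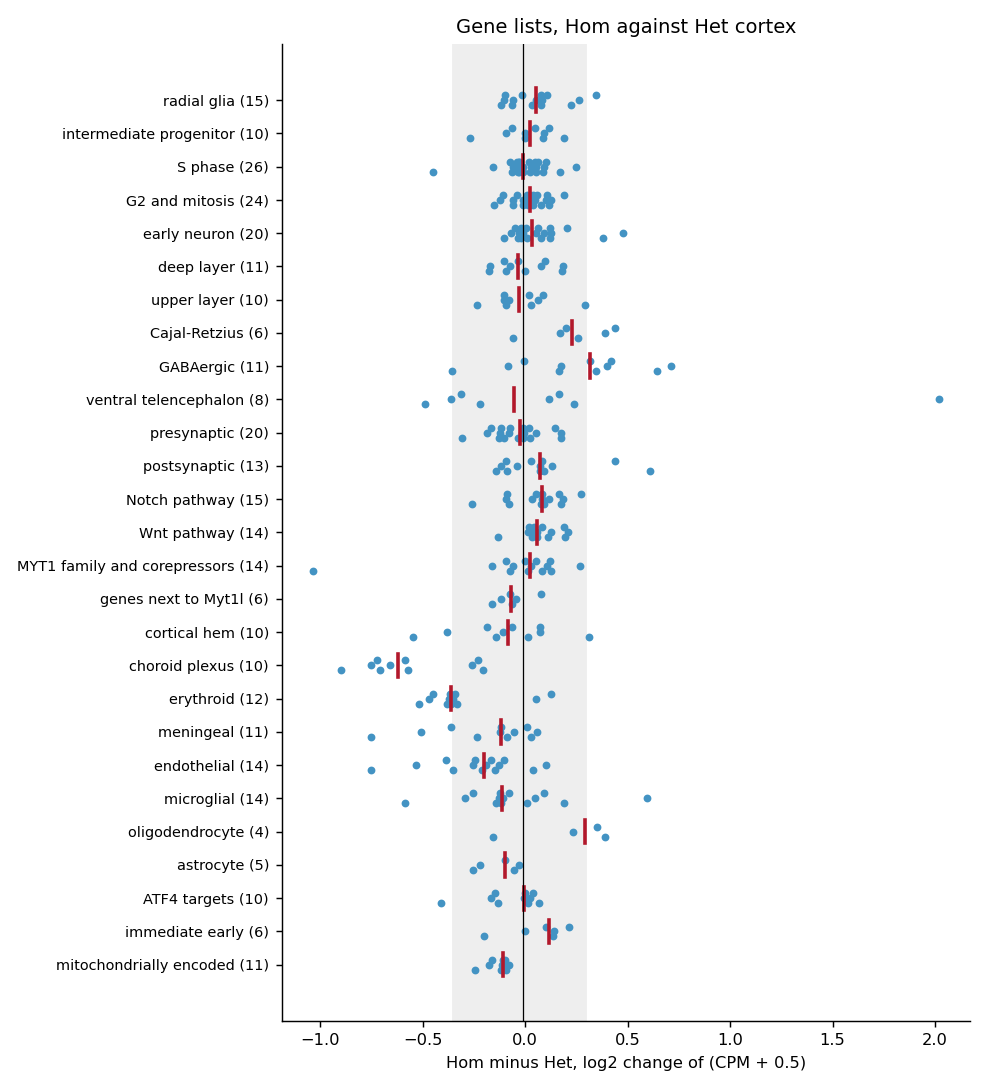
Log2 change of Hom against Het (x axis) for each tested gene (blue point) of 27 gene lists, with the number tested in brackets; red bars are list medians, the black line is the median of all genes and the grey band holds the central 90% of all genes. Most lists centre near 0, while the choroid plexus list lies to the left with a median of -0.62 and the 1 far point to the right is Isl1 at 2.02.

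Several lists of neighbouring tissue and blood had medians below 0. The choroid plexus, an epithelium that secretes cerebrospinal fluid and adjoins the medial cortex, had the list median farthest from 0, at -0.62 over 10 tested of 13 listed genes, with 10 of 10 log2 changes below 0. Of these, 5 had an unadjusted p under 0.05 and 0 were called in limma. Over all genes, 6594 of 12429 changes were below 0 and 3.04% of genes had lower values in Hom with an unadjusted p under 0.05. Ttr, the transthyretin carrier that marks this epithelium, measured 1551, 2418, 2789 and 2819 CPM in Hom F01, F04, F09 and M02. In Het the lowest, median and highest were 2938, 3783 and 5081 CPM, so the groups did not overlap. Its log2 change was -0.71 (95% interval -1.36 to -0.06). Calml4, a calmodulin-like protein, measured 10.2, 10.4, 12.1 and 10.1 CPM in Hom, against 14.3, 17.8 and 23.4 CPM in Het as lowest, median and highest (log2 change -0.76). Sostdc1, a secreted inhibitor of BMP and Wnt signals, ran from 18.2 to 35.8 CPM in Hom and from 36.3 to 68.3 CPM in Het. Kcnj13, a potassium channel, ran from 1.64 to 5.25 CPM in Hom and from 4.91 to 11.0 CPM in Het, and its groups overlapped.

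For Ttr and Calml4 the Hom means lay near WT. Ttr averaged 2394 CPM in Hom, 3861 CPM in Het and 2441 CPM in WT, and Calml4 averaged 10.7 CPM in Hom, 18.1 CPM in Het and 11.6 CPM in WT. Kcnj13 averaged 3.73 CPM in Hom, 7.40 CPM in Het and 5.17 CPM in WT, so that WT lay between the mutants. The summed level of the list ran from 1649 to 2997 CPM in Hom, 3103 to 5378 CPM in Het and 1458 to 4147 CPM in WT. Het M07 had the highest sum of any library. It was also the highest library for the meningeal (592 CPM), microglial (195 CPM) and cortical hem (166 CPM) lists. The choroid plexus list median was -0.65 without Het F10 and Het M11, -0.49 without Hom F01 and -0.76 without Hom M02. Within prefix 14424 the log2 change was -0.89 for Ttr, -0.77 for Calml4 and -1.34 for Kcnj13. Within prefix 14526, with 1 Hom and 2 Het embryos, they were -0.21 for Ttr, -0.62 for Calml4 and 0.05 for Kcnj13. How much choroid plexus each dissected cortex held was not measured, and its part in these values was not tested.

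Other cell types showed smaller shifts. The 12 tested erythroid genes had a median of -0.36 and none with p under 0.05. Hbb-bs, a beta globin of red blood cells, measured 1774, 2451, 2789 and 3076 CPM in Hom, against 2549, 3278 and 4388 CPM in Het as lowest, median and highest (log2 change -0.38). Without Het F10 and Het M11, the libraries with the highest summed erythroid level, that median was -0.16. Reads of the near-identical globin copies Hba-a1 and Hba-a2 may have been divided between them. The endothelial median was -0.20 over 14 genes, with Slco1a4, a transporter of the blood-brain barrier, at 2.52 CPM in Hom and 4.78 CPM in Het. The meningeal median was -0.12 over 11 genes, with Ogn, an extracellular matrix proteoglycan, at 4.92, 2.90, 3.51 and 4.34 CPM in Hom, against 5.07, 7.09 and 8.88 CPM in Het as lowest, median and highest. Its groups did not overlap (log2 change -0.75), and WT averaged 3.92 CPM, as did Hom. The microglial median was -0.11 over 14 genes, with 5 changes above and 9 below 0. Ctss, a lysosomal protease of microglia, ran from 8.62 to 11.0 CPM in Hom and from 11.0 to 18.8 CPM in Het (log2 change -0.59, limma adjusted p = 0.59), with Het M11 just under the highest Hom value. C1qa, a complement subunit in the same list, went the other way, at 2.58 CPM in Hom and 1.60 CPM in Het (log2 change 0.60). The microglial receptor genes Cx3cr1 and Csf1r had changes of 0.01 and 0.05.

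Markers of the ventral forebrain, which adjoins the lateral cortex and gives rise to inhibitory neurons, were mixed. The GABAergic list had a median of 0.32 over 11 genes, with 8 changes above and 3 below 0, but 0.01 without Het F10 and Het M11 and 0.05 without Hom F01. Sst, the somatostatin gene and the most abundant of the list, averaged 30.1 CPM in Hom and 35.9 CPM in Het (log2 change -0.36). Sp9, a zinc-finger factor of immature inhibitory neurons, measured 5.06, 2.56, 2.23 and 6.76 CPM in Hom, against 1.09, 3.30 and 4.47 CPM in Het as lowest, median and highest (log2 change 0.71, 95% interval 0.13 to 1.30). The ventral telencephalon list had 4 changes above and 4 below 0, with a median of -0.05 over 8 genes. Its members Ikzf1, Ebf1 and Penk had log2 changes of -0.49, -0.36 and -0.31. Isl1, a factor of striatal neurons in the same list, measured 16.4 CPM in Hom F01 and 15.95 CPM in Hom M02, but 0.648 CPM in Hom F04 and 1.35 CPM in Hom F09. In Het it measured 12.7 CPM in M07 and at most 1.46 CPM in the other libraries. High Isl1 was thus a feature of 3 embryos from both genotypes. Its log2 change of 2.02 had an interval of 0.01 to 4.03. The Cajal-Retzius list had a median of 0.23 over 6 genes, with 5 changes above and 1 below 0 and none with p under 0.05. Calb2, its most abundant member, averaged 53.0 CPM in Hom and 48.0 CPM in Het (log2 change 0.20). Lhx1 and Ebf2 had log2 changes of 0.39 and 0.44. Reln, the secreted glycoprotein of these cells, averaged 41.3 CPM in Hom and 42.6 CPM in Het.

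**Figure D5:**
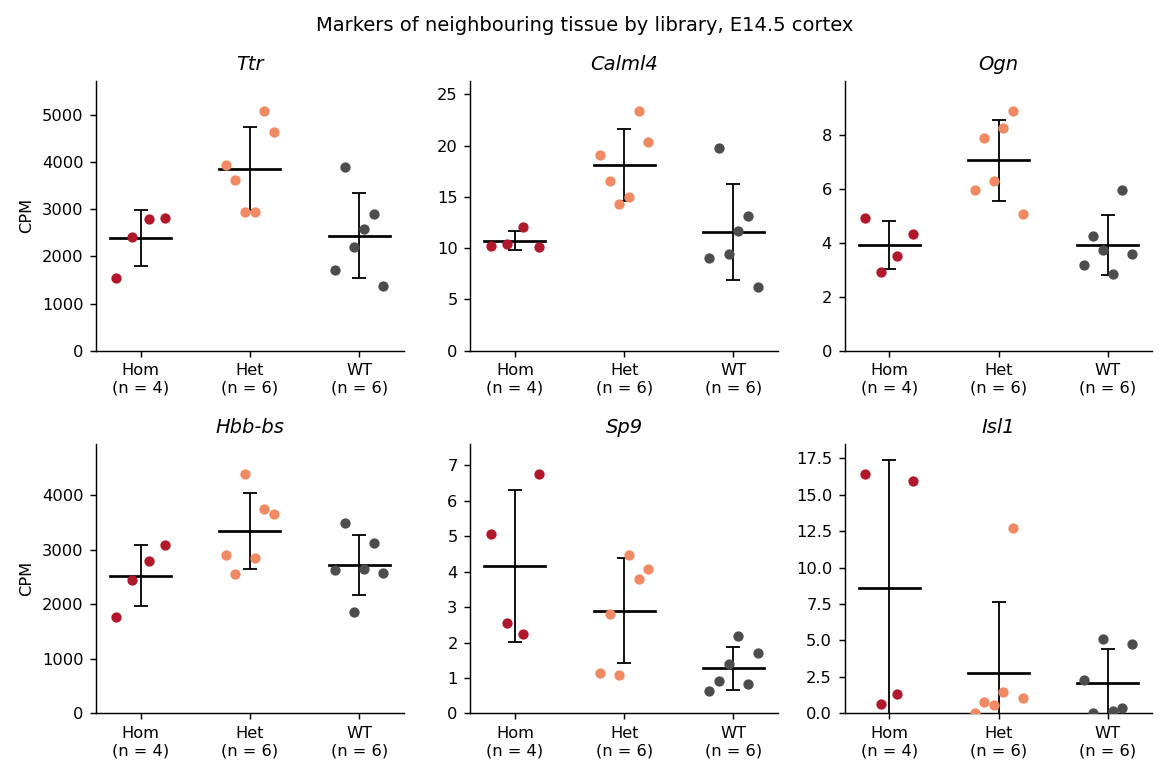
CPM in each library of Ttr and Calml4 (choroid plexus), Ogn (meninges), Hbb-bs (red blood cells), Sp9 (inhibitory neurons) and Isl1 (ventral forebrain), with Hom left, Het in the middle and WT right; points are libraries, lines are means and bars are 1 SD. For Ttr, Calml4 and Ogn the Hom libraries lie below the Het libraries and within the WT range, and for Isl1 2 Hom libraries and 1 Het library lie above 12 CPM.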

How the data were processed

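RNA was sequenced from 16 E14.5 cortices (4 Hom, 6 Het, 6 WT). Libraries were made with the SMARTer Ultra Low RNA kit from Zymo-extracted RNA, per the labels' protocols. The submitters' processing notes name mm10, STAR, HTSeq, Bowtie2 and Trimmomatic; their versions and the strand setting are unstated. The authors deposited log2 CPM after RUVr, a method that removes unwanted variation estimated from residuals; a prior count of 2 was read from the values. Undoing the log gave CPM in steps, of which 100% were whole within 0.01. These are scaled, adjusted numbers and not reads, so depth is unknown and no count test was the main test. Over 8550 abundant genes, 2 directions across the libraries had nearly no variance (singular values up to 0.0568, against at least 10.3 for the others), a trace of RUVr.

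A gene needed 1 CPM in 4 or more of 16 libraries to be tested, 12429 of 13846. The remaining genes, 1417 of them, have no test. Annotation was GENCODE vM21 on GRCm38, and 13845 genes matched. On log2(CPM + 0.5), which understates changes of scarce genes, limma 3.58.1 in R 4.3.3 (trend and robust) fitted genotype and labelled sex over the 16 libraries, with Benjamini-Hochberg adjustment. A gene is called at an adjusted p under 0.05. The fit was also run on simulated data, drawn independently for each library and without RUVr. That run cannot show how RUVr affects the p-values. Genes named were Myt1l, Myt1 and St18, the 8 in each direction with the lowest p and no overlap, up to 3 members with the lowest p and the most abundant member of each list, and the 6 in each direction with the lowest p between the pooled mutants and WT. A few were chosen after values were seen, and some that met the rule are not reported here. The members and lists were chosen with earlier results of these data known. Lists are described by counts and medians without a test. P-values measure the spread between embryos, as labelled, that RUVr left in the values. The main fit did not allow for what RUVr removed, so p-values and intervals may be too small. Alternatives covered pseudocounts, filters, scaling, covariates, libraries left out, weights and a GC and length correction. Figures were drawn with matplotlib 3.10.9.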

Additional observations from a re-analysis of the deposited data

Results flagged for a closer look

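Of 123 groups of 4 or 6 libraries examined for 41 genes given by library, 6 had 1 library far from the rest. Chance flags about 1 in 20 groups. Lsp1 measured 10.1 CPM in Hom M02, against 6.48 to 6.87 CPM in the other Hom libraries. Isl1 measured 12.7 CPM in Het M07, against 0 to 1.46 CPM in the other Het libraries. Serpinb6b measured 4.54 CPM in Het M07, against 1.11 to 2.31 CPM in the other Het libraries. Ccdc33 measured 2.67 CPM in Het M11, against 0.271 to 1.00 CPM in the other Het libraries. Il15 measured 1.14 CPM in Het F07, against 0.136 to 0.475 CPM in the other Het libraries. Manba measured 3.26 CPM in WT F04, against 1.32 to 2.04 CPM in the other WT libraries.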

How the results depend on the processing

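Among 14 alternatives other than leaving out 1 library, Myt1l was called in 7, with the log2 change between -1.25 and -0.99. It was the 1 gene called in any of them. No gene was called (count 0) in the other 7, where the log2 change of Myt1l was -1.05 with only Hom and Het libraries in the fit, -1.12 with only libraries labelled female, -1.03 with the identifier prefix as a block, -1.04 without trend and robust, -1.01 with voom weights, -1.04 with the directions left by RUVr as covariates and -1.04 after the GC and length correction. The highest adjusted p was 0.282. Leaving out 1 library gave 0 to 1 called genes and a change of -1.16 to -0.90. The call was kept in 5 of 16 cases. It was lost without Hom F01, F04, F09 or M02, Het F07, M01 or M07, or WT F04, F06, F12 or M03.

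An unadjusted p under 0.05 was reached by 978 genes without Het F10 and Het M11 and 401 with the RUVr directions, against 636. The split was 531 higher and 195 lower with voom weights, and 318 higher and 332 lower after the GC and length correction, against 258 and 378. The median over all genes was 0.04 and 0.00 in these, against -0.01. Of 4102 values for the 138 other named genes, 4080 stayed within the replicate spread and 0 were called. These values come from all alternatives, 16 of which left out a single library. Such an omission can shift a group mean by only part of that spread. The count of 4080 is thus largely set by the rule and does not show that these genes are stable. No paired analysis was possible because the numbers in the titles count animals within an identifier prefix, so that a number found in both Hom and Het names different embryos with different prefixes. The unknown depth and the 4 Hom embryos limit the precision.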

Other observations

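The genes encoded by the mitochondrial genome had log2 changes of Hom against Het below 0 for 11 of 11 tested members, beside 6594 of all 12429 genes. Their median log2 change was -0.11, with none at p under 0.05. The groups overlapped in the summed level, at 7006 to 11226 CPM in Hom and 6795 to 11381 CPM in Het. mt-Co1, a subunit of cytochrome oxidase, averaged 2222 CPM in Hom and 2379.6 CPM in Het. The median was -0.25 without Het F10 and Het M11. The ATF4 targets of amino acid synthesis had a median of 0.00 over 10 genes, with Psat1 at 436 CPM in Hom and 437 CPM in Het. Immediate early genes had a median of 0.12 over 6 genes, astrocyte genes -0.10 over 5 and oligodendrocyte genes 0.29 over 4. The cortical hem, the signalling border next to the choroid plexus, had a median of -0.09 over 10 genes. Its factor Lmx1a averaged 9.74 CPM in Hom and 12.7 CPM in Het (log2 change -0.38, 95% interval -0.75 to -0.00445).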
